A study of Mus musculus with 2 samples.

Results

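C1q-high macrophages were described in mouse livers bearing metastases of the B16F10 melanoma line. Live (DAPI-negative) CD45+ single cells had been sorted after digestion with collagenase IV and DNase I, and each genotype gave 1 library of 10x Genomics 5′ chemistry: 1 from WT mice and 1 from Vsig4-/- mice, called Vsig4 KO here. Every cell of both libraries came from a metastasis-bearing liver. The labels give neither the number of mice per library nor their age or strain, so differences below are differences between 2 libraries, without a test, and every interval covers counting error only. A barcode was counted as a C1q-high macrophage when it held at least 5 UMIs of C1qa, C1qb and C1qc together, at most 2 UMIs of Spp1, Arg1 and Gpnmb together, and no UMI of Cd3d, Cd3e, Cd3g, Cd79a or Siglech. Barcodes under 200 genes or 500 UMIs, or with over 10% of UMIs from mitochondrial genes, were left out beforehand. Of the 12618 that remained 385 met the rule, 249 in the WT and 136 in the Vsig4 KO library.

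C1qa, C1qb and C1qc encode the chains of C1q, the recognition subunit of the classical complement pathway, which binds immune complexes and dying cells. Tissue macrophages are a major source of C1q, and blood monocytes gain its expression as they mature into macrophages. The resident macrophages of the liver are Kupffer cells, which line the sinusoids, clear particles and aged red cells from the blood, and carry the lectin Clec4f and the complement receptor VSIG4. The title of the series names VSIG4 on Kupffer cells and CD5, a T cell surface protein, as interacting partners.

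The rule used the C1q UMIs, so these are given as a description. C1q-high macrophages held a median of 18 C1q UMIs (quartiles 9 and 40, highest 203) in WT and 20 (11 and 42, highest 228) in Vsig4 KO. At the threshold, 10 WT and 9 Vsig4 KO cells held exactly 5 C1q UMIs, and 12 and 7 other barcodes fell just outside with 4. On the side of Spp1, Arg1 and Gpnmb, 20 and 12 cells held 2 UMIs, and 10 and 10 C1q-positive barcodes lay just outside with 3. The median total was 3730 UMIs and 1373 genes per cell in WT and 2927.5 UMIs and 1080 genes in Vsig4 KO, so the Vsig4 KO cells were shallower. Together the cells held 1235004 and 618814 UMIs. In B cells of the same libraries, which should lack C1q, 1.92% and 1.68% of barcodes had any C1q UMI, at a median of 2478 and 2836.5 UMIs. There were 54 barcode sequences present in both libraries; 4 WT and 2 Vsig4 KO C1q-high macrophages were among them, none of them shared between C1q-high macrophages of both.

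C1q-high macrophages made up 3.62% of WT barcodes (95% interval 3.19 to 4.09) and 2.37% of Vsig4 KO barcodes (1.99 to 2.79). The ratio of Vsig4 KO over WT was 0.653 (0.526 to 0.808). Macrophages that passed the C1q threshold but held at least 3 UMIs of Spp1, Arg1 and Gpnmb numbered 77 and 51, with a share ratio of 0.792 (0.545 to 1.14). Monocytes with at least 3 Ly6c2 UMIs and no C1q UMI numbered 378 and 197, with a ratio of 0.623 (0.522 to 0.742). The share was thus lower in the Vsig4 KO library for C1q-high macrophages and for Ly6c2-high monocytes alike, and the interval of the Spp1, Arg1 or Gpnmb macrophages reached above 1. All are shares of the barcodes kept, 6872 in WT and 5746 in Vsig4 KO, of which 1825 and 1962 were B cells. A share also depends on the other cells, and cell numbers per liver were not measured.

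**Figure D1:**
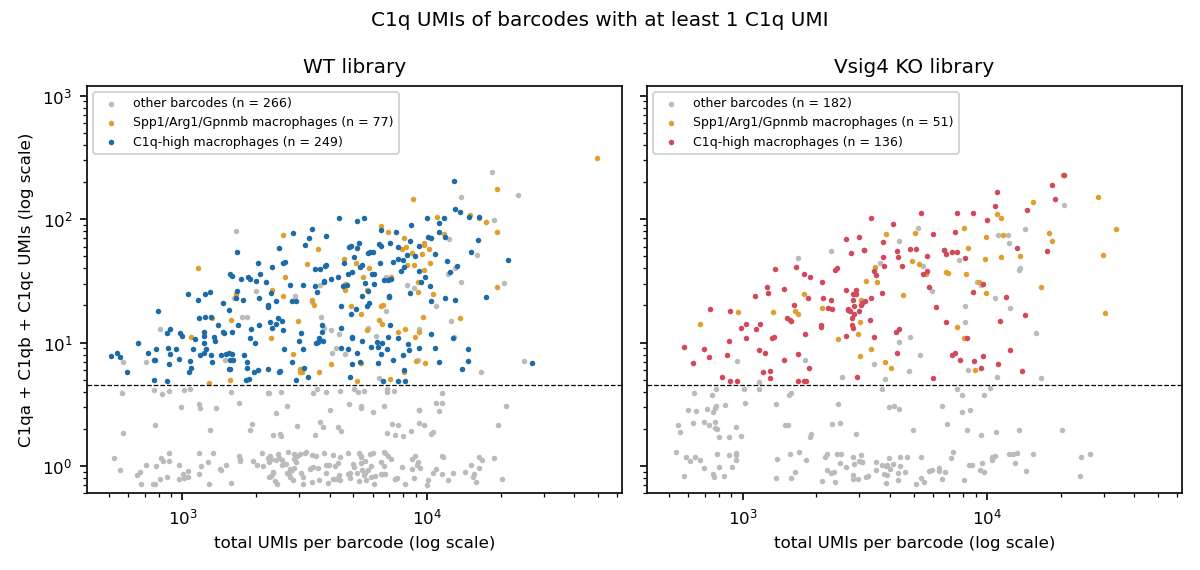
C1q UMIs (C1qa, C1qb and C1qc together, log scale, with a small vertical jitter) against total UMIs per barcode (log scale) for every barcode with at least 1 C1q UMI; the dashed line marks the threshold of 5 UMIs. The 249 WT and 136 Vsig4 KO C1q-high macrophages and the Spp1, Arg1 or Gpnmb macrophages (77 and 51) lie on or above the line, and most other barcodes with a C1q UMI lie below the line.

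The profile of the cells was that of macrophages. By a rule of size, the smaller of the 2 libraries' ratios over all other barcodes, the 20 leading genes were C1qa, C1qb and C1qc with Clec4f, Cd5l, Ccl12, Ms4a7, Igf1, Mmp12, Axl, Itga9, Mmp14, Stab1, Pf4, Mertk, Fcgr4, Apoc1, Mrc1, Creb5 and C3ar1. Axl and Mertk are receptor kinases that take up dying cells, Stab1 and Mrc1 are scavenger receptors, Fcgr4 binds IgG, C3ar1 is the receptor of the complement fragment C3a, and Mmp12 and Mmp14 are matrix proteases. These cells were chosen on C1q, and the contrast with other barcodes carries no test. The level of C1qb was 2708 CPM (2617–2801) for WT against 3440.4 CPM (3296–3589.8) for Vsig4 KO, where CPM is the gene's count per 1000000 UMIs, summed over all C1q-high macrophages of a library. C1qa stood at 1561 and 1979.6 CPM and C1qc at 1461 and 2029.7. All 3 genes lie side by side on mm10 chromosome 4 (C1qa: ENSMUSG00000036887, mm10 chromosome 4, 136895917 to 136898803, minus strand; C1qc: 136889804 to 136893065; C1qb: 136880129 to 136886187).

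Pf4, a platelet-type chemokine that tissue macrophages also make, and Ms4a7, a membrane protein of mature macrophages, were used as markers to check the name. Pf4 (ENSMUSG00000029373, mm10 chromosome 5, 90772435 to 90773383, plus strand) had a UMI in 96 of 249 WT and 71 of 136 Vsig4 KO cells. With every cell thinned to 1000 UMIs (228 WT and 124 Vsig4 KO cells deep enough), Pf4 was seen in 25.9% (20.3–32.1) of WT and 36.3% (27.8–45.4) of Vsig4 KO cells, against 0.222% and 0.207% of B cells and 0.265% and 0.513% of Ly6c2-high monocytes. Ms4a7 (ENSMUSG00000024672, mm10 chromosome 19, 11321039 to 11336146, minus strand) was seen in 23.7% (18.3–29.7) and 33.9% (25.6–42.9) after thinning, against 0.333% and 0.103% of B cells. Both markers were thus far more frequent than in B cells, though in both libraries most cells had no Pf4 UMI at this depth.

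**Figure D2:**
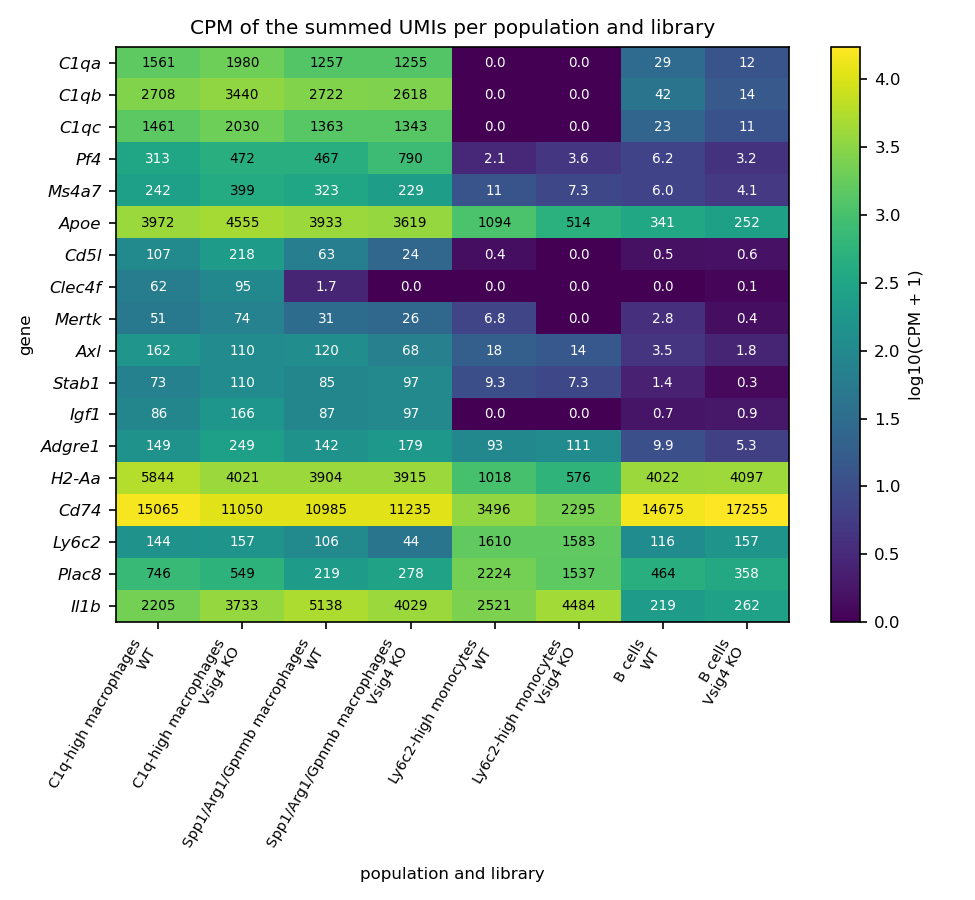
CPM of 18 genes (rows) in the summed UMIs of 4 populations, each in WT and Vsig4 KO (columns); the colour gives log10(CPM + 1) and each field prints the CPM. C1qa, C1qb, C1qc, Pf4, Ms4a7 and Igf1 are shared by the C1q-high and the Spp1, Arg1 or Gpnmb macrophages, Clec4f stands almost alone in the C1q-high macrophages, and Ly6c2 is highest in the monocytes that it defined.

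Kupffer cells were few. Clec4f (ENSMUSG00000014542, mm10 chromosome 6, 83644542 to 83656187, minus strand) had a UMI in 14 WT cells, 5.62% of the C1q-high macrophages (3.11 to 9.25), and in 5 Vsig4 KO cells, 3.68% (1.20 to 8.37). These cells were high in Cd5l, a secreted scavenger protein of tissue macrophages: among cells with a Clec4f UMI, Cd5l held 4156 CPM (3431–4989) for WT against 5244 CPM (4228–6432) for Vsig4 KO, and it was seen in all 14 and all 5 of them. In cells with neither a Clec4f nor a Ly6c2 UMI, Cd5l stood at 17.2 and 111 CPM. H2-Aa, an MHC class II gene, was at 1120.3 CPM (761–1590.2) and 969 CPM (565–1552) in them, against 6431 and 3796 CPM in cells with neither a Clec4f nor a Ly6c2 UMI. Apoe, the lipid carrier apolipoprotein E, was 10516 and 10716.5 CPM in the Clec4f-positive cells.

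Vsig4 (ENSMUSG00000044206, mm10 chromosome X, 96247203 to 96293438, minus strand), the gene knocked out, checked the labels. It gave 35 UMIs in 15 WT cells, 28.3 CPM (19.7–39.4). In the Vsig4 KO library 2 UMIs lay in 2 cells, 3.23 CPM (0.391–11.7). The ratio was 0.114 (0.0133–0.444). Within the cells with a Clec4f UMI there were 28 UMIs in 11 of 14 WT cells (1012 CPM, 672 to 1462) and none in the 5 Vsig4 KO cells, so the ratio there was at most 0.222. Without those cells 7 UMIs were left in WT and 2 in Vsig4 KO, and the ratio of 0.574 had an interval from 0.0582 to 3.01. The labels thus hold in the Kupffer cells, and outside them Vsig4 was too rare at this depth for a difference to be seen. Which part of the gene the knockout removes is not given in the sources used here.

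The C1q-high macrophages formed a range from cells low in C1q, many with monocyte genes, to C1q-rich cells in both libraries. Cells were put in 4 bins by the share of C1q in their UMIs, which describes them by the same genes that chose them. Pf4 stood at 11.9, 202, 385 and 934 CPM from the lowest to the highest bin in WT and at 34.1, 272, 691 and 709.9 in Vsig4 KO. Igf1, a growth factor made by tissue macrophages, went from 2.98 to 268 CPM in WT and from 13.7 to 268 in Vsig4 KO. Ctsd, the lysosomal protease cathepsin D, went from 307 to 1367 CPM and from 348 to 1593. These macrophage genes were highest in the cells richest in C1q.

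Genes of monocytes had the opposite order. Ly6c2, the surface marker of classical monocytes, stood at 319 CPM in the lowest and at 0 in the highest bin of WT, and at 409.7 and 42.1 CPM in Vsig4 KO. Plac8, which was abundant in the Ly6c2-high monocytes, stood at 1338 CPM in the lowest and 302 in the highest bin of WT, and at 1133.5 in the lowest and 231 in the highest bin of Vsig4 KO. Beside monocyte genes, the lowest WT bin held 137 UMIs of the dendritic cell marker Cd209a in 8 of 39 cells. The lowest Vsig4 KO bin held 3 in 3 of 16 cells. Cells in the lowest bin were the deepest, with a median of 7277 and 9124 UMIs against 1944.5 and 2401 in the highest; a fixed threshold in UMIs admits deep cells with a small C1q share. The highest bin held 64 of 249 WT cells (25.7%, 20.4 to 31.6) and 52 of 136 Vsig4 KO cells (38.2%, 30.04 to 47.0). At 1000 UMIs, 37.7% of WT (31.4 to 44.4) and 24.2% of Vsig4 KO cells (17.0 to 32.7) had a UMI of Ly6c2, Ccr2, Chil3, Plac8 or Vcan, the markers of classical monocytes. Ly6c2 itself did not follow this, though its share is given without thinning. A Ly6c2 UMI was present in 17.3% of WT and 16.9% of Vsig4 KO cells (cells with a Clec4f UMI set apart). The summed level of Ly6c2 was 144 and 157 CPM. Chil3, Vcan and F13a1 were higher in the Vsig4 KO sum (1.92, 1.60 and 2.44). The bins thus held different shares of the 2 libraries' cells, without one direction for all monocyte genes. Over all bins together Vsig4 KO cells were shallower, while in the lowest and in the highest bin they were deeper than WT cells. A fixed minimum of 5 UMIs asks a higher C1q share of a shallow cell, and the part of depth in the shares was not tested.

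**Figure D3:**
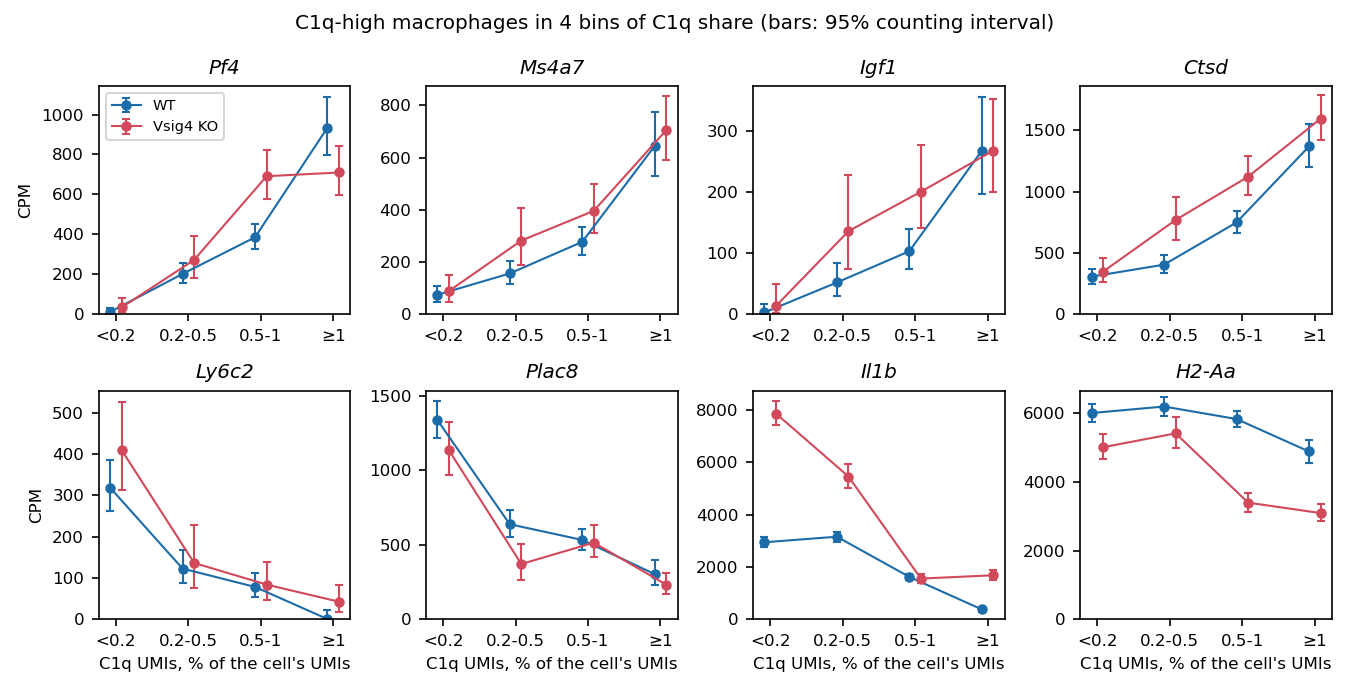
CPM of 8 genes in C1q-high macrophages split into 4 bins by the percentage of C1q among a cell's UMIs, for WT (blue) and Vsig4 KO (red); points are summed CPM and bars 95% counting intervals, over 39, 56, 90 and 64 WT and 16, 22, 46 and 52 Vsig4 KO cells. Pf4, Ms4a7, Igf1 and Ctsd are lowest in the lowest bin, Ly6c2 and Plac8 are highest there, and H2-Aa is lower in Vsig4 KO in all 4 bins.

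Between the libraries, 7315 genes had at least 20 UMIs over both sums. A gene was counted as higher or lower when its CPM ratio of Vsig4 KO over WT was at least 1.5-fold from 1 and the 95% counting interval excluded 1. By this rule 292 genes (3.99% of those measured) were higher and 405 (5.54%) lower in Vsig4 KO, and the median log2 ratio of all 7315 was -0.05. Ratios were above 1 for 3264 genes and below 1 for 4051. These values are the baseline for the counts within gene lists below. Some calls rested on 1 deep cell. With the cell holding the most UMIs of each gene left out of each library, 193 of the 292 and 371 of the 405 were still counted. With each cell weighted equally, 208 genes were higher and 614 lower, of which 108 and 243 were among those above. Of the 292 higher and 405 lower genes, 30 and 36 were past 1.5-fold in the same direction in all other barcodes of the libraries. The share of all 7315 genes past 1.5-fold there was not counted, so these counts have no baseline.

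MHC class II was lower in the Vsig4 KO cells. Class II molecules present peptides of taken-up proteins to CD4 T cells: H2-Aa and H2-Ab1 encode the chains of I-A, H2-Eb1 a chain of I-E, Cd74 the invariant chain that escorts them, and Ciita the coactivator that drives their transcription. H2-Aa (ENSMUSG00000036594, mm10 chromosome 17, 34282744 to 34287823, minus strand) held 5844 CPM (5709.6–5980.1) in the WT sum against 4021 CPM (3864–4182) in the Vsig4 KO sum. Its ratio was 0.688 (0.657–0.720). H2-Ab1 had a ratio of 0.691 (0.657–0.726), H2-Eb1 of 0.675 (0.642–0.710) and Cd74 of 0.734 (0.713–0.754); these 4 were short of 1.5-fold, with intervals below 1. Ciita stood at 102 CPM in WT and 54.9 in Vsig4 KO and passed the rule, with a ratio of 0.539 (0.357–0.792); with Spp1, Arg1 and Gpnmb all at 0 it was 0.669, no longer past it. Of 9 class II pathway genes measured, 8 had ratios below 1, beside 4051 of all 7315 genes measured. Of the 9, 1 was counted as lower, beside 405 of all 7315, and none as higher. The median log2 ratio was -0.53, -0.57 without the cells with most UMIs of each gene and -0.62 with equal weights. The exception was Ctss, cathepsin S, which trims the invariant chain, at 1561 and 1681 CPM.

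The class II ratio was not the same in all kinds of C1q-high macrophage, a difference that was not tested. In cells with neither a Clec4f nor a Ly6c2 UMI (192 WT, 108 Vsig4 KO) the H2-Aa ratio was 0.590 (0.557–0.625) and that of Cd74 0.615 (0.593–0.637). In cells with a Ly6c2 UMI (43 and 23) the H2-Aa ratio was 0.995 (0.918–1.08) and that of Cd74 1.04 (0.996–1.10). In cells with a Clec4f UMI (14 and 5) they were 0.865 (0.449–1.61) and 1.16 (0.874–1.52). The WT cells with neither UMI also held 152 UMIs of the dendritic cell marker Cd209a in 9 cells, against 0 in Vsig4 KO. Ly6c2-positive cells were deep, with a median of 7075 and 9394 UMIs against 3133 and 2806.5. At 1000 UMIs per cell an H2-Aa UMI was found in 76.3% (70.3–81.7) of WT cells and in 62.1% (52.9–70.7) of Vsig4 KO cells. The H2-Aa ratio was 0.566 (0.521–0.613) in Ly6c2-high monocytes, 1.003 (0.942–1.07) in the Spp1, Arg1 or Gpnmb macrophages and 0.931 (0.921–0.941) over all other barcodes. C1q-high macrophages and monocytes thus had the lower values, and the Spp1, Arg1 or Gpnmb macrophages gave equal levels within counting error.

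Class II promoters share a conserved module whose Y box, an inverted CCAAT element bound by NF-Y, reads TGATTGG in its common form. This 7-letter motif was searched on both strands of the RefSeq promoter table (GRCm38.p6, 250 bases before to 50 after a start), where 2568 of 32851 promoters (7.82%) hold it. Entries existed for 7 of the 10 genes of the class II list, and 4 of the 8 entries held it, each once and on the gene's strand: H2-Aa, H2-Eb1, H2-DMb1 and H2-Oa. Those of Ctss, Ifi30 and H2-DMa did not hold these letters in this window. The first 3 are printed 5′ to 3′ because their CPM was lower in Vsig4 KO; the ratio of H2-DMb1 was 0.819 (0.698–0.957), and capitals mark the motif. It starts 50 bases before the start in H2-Aa (chr17:34287774-34288073, minus strand), 61 in H2-Eb1 (chr17:34305617-34305916, plus strand) and 63 in H2-DMb1 (chr17:34152941-34153240, plus strand). A match is a description of these letters, and binding was not measured.
H2-Aa: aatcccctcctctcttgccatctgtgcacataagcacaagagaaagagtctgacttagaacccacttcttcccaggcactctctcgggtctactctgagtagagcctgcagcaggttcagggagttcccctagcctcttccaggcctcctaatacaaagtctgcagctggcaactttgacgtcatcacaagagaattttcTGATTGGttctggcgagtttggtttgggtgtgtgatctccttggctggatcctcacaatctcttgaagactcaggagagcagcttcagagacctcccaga
H2-Eb1: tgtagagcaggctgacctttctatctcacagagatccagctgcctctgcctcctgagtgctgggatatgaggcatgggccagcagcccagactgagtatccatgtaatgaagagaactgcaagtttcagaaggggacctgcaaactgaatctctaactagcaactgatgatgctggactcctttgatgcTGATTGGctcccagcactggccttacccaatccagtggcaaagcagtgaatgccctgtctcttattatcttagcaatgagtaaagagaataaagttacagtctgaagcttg
H2-DMb1: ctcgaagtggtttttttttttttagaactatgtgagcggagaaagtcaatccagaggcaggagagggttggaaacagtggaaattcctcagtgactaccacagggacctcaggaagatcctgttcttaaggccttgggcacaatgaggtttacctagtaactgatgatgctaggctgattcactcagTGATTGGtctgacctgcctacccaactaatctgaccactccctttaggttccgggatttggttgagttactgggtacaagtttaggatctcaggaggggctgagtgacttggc

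Itgax, Cd274 and Il10 were also lower, while most class I genes and all costimulatory ligands measured were not counted. Itgax, the integrin chain CD11c of dendritic cells and some macrophages, gave 227 UMIs in 89 WT cells and 41 in 21 Vsig4 KO cells, 184 against 66.3 CPM, a ratio of 0.360 (0.252–0.504). It was lower in each bin of C1q share, with ratios from 0.268 to 0.443, and at 1000 UMIs per cell it was seen in 14.5% (10.2–19.7) of the WT cells against 4.03% (1.32–9.16) of the Vsig4 KO cells. Cd274, which encodes the T cell inhibitory ligand PD-L1, stood at 113 and 63.0 CPM, a ratio of 0.560 (0.382–0.804). Il10, an anti-inflammatory cytokine, gave 25 UMIs in 12 WT and 3 in 3 Vsig4 KO cells. Of 12 MHC class I genes measured, 3 were lower and none higher, with a list median log2 ratio of -0.14 and B2m, the light chain of class I, at 0.968 (0.905–1.03). The lower ones were Psmb9 (0.651) and Psmb10 (0.641), subunits of the immunoproteasome, and H2-Q7 (0.609), whose reads are uncertain because the H2-Q genes are near-identical copies.

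UMIs of dendritic cell and NK cell markers were fewer in the Vsig4 KO cells, and many lay in few WT cells. The 5 cDC2 markers Cd209a, Flt3, Clec10a, Mgl2 and Dnase1l3 gave 397 UMIs in 53 WT cells, 129 of them in 1 cell, and 52 UMIs in 24 Vsig4 KO cells. Cd209a had a ratio of 0.0768 and Mgl2 of 0.133. At 1000 UMIs per cell, however, the share of cells with a cDC2 marker was 9.21% in WT and 8.87% in Vsig4 KO, and that with a cDC1 marker 12.3% and 12.1%, so the shares differed by less than their counting intervals while the UMI sums differed more. Mature dendritic cell markers gave 143 UMIs in 8 WT cells, 74 of them in 1 cell, and 12 UMIs in 5 Vsig4 KO cells. With cells of at least 2 UMIs of cDC2 or other lineage markers left out, 200 WT and 126 Vsig4 KO cells remained. In these H2-Aa had a ratio of 0.714, Itgax of 0.386, Traf1 of 0.207, Gpr183 of 0.290 and Cd274 of 0.529. NK cell markers gave 176 UMIs in 18 WT cells and 3 in Vsig4 KO. Ccl5, a chemokine of NK and T cells, had a ratio of 0.393 (0.309–0.495), and of 1.27 without the cells with other lineage markers. Of the defining T cell markers, Cd3d, Cd3e and Cd3g are at 0 by the rule, stellate cell markers gave 0 and 1 UMIs and erythroid markers 2 and 0; melanoma markers gave 152 and 99 UMIs. The part of these cells in other results was not tested beyond these values.

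Some genes of mature macrophages were higher in the Vsig4 KO sum. Of 20 macrophage identity genes measured, 5 were higher and none lower: Pf4, Ms4a7, Cd63, Adgre1 and Cd14. Pf4 held 313 CPM (283–346) in the WT sum against 472 CPM (419–529) in the Vsig4 KO sum, with a ratio of 1.51 (1.29–1.76). Ms4a7 stood at 242 and 399 CPM, a ratio of 1.65 (1.39–1.96). The list's median log2 ratio was 0.26, but 0.01 with equal weights, at which only Ms4a7 (1.60) of the 5 stayed past 1.5-fold. Within bins of C1q share the Pf4 ratio was 1.35 (0.834–2.13) at 0.2 to 0.5%, 1.79 (1.40–2.29) at 0.5 to 1% and 0.760 (0.6005–0.960) at 1% or more. The Ms4a7 ratio was 1.81 (1.10–2.90), 1.43 (1.05–1.94) and 1.09 (0.846–1.42) in the same bins. The intervals thus lay above 1 in the 0.5 to 1% bin for both genes. In the C1q-richest bin the Pf4 interval lay below 1, the opposite direction, and that of Ms4a7 included 1. Without the cells with other lineage or cDC2 markers Pf4 had 1.35 and Ms4a7 1.28, which ended both calls. The Pf4 ratio lay just above the fold set, and a C1q minimum of 10 UMIs gave 1.48. Adgre1, the F4/80 antigen, had a ratio of 1.67 (1.34–2.08) and 1.11 with equal weights. Lyz2, lysozyme, was level, at 6569 and 6648 CPM, a ratio of 1.01 (0.975–1.05).

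Some lysosomal, scavenging and lipid genes were higher in Vsig4 KO. Of 18 lysosome and cathepsin genes 16 had ratios above 1, beside 3264 of all 7315 genes measured, and 2 were counted as higher: Ctsd, at 625 and 1025 CPM (1.64, interval 1.47–1.82), and Ctsb, cathepsin B, at 2096 and 3145 CPM (1.5, interval 1.41–1.59). With equal weights their ratios were 1.49 and 1.30, short of 1.5-fold. In cells with neither a Clec4f nor a Ly6c2 UMI the Ctsd ratio was 1.89 (1.68–2.14). By C1q share it was 1.90 (1.42–2.53) at 0.2 to 0.5%, 1.498 (1.25–1.80) at 0.5 to 1% and 1.17 (0.980–1.39) at 1% or more. Of 15 scavenging and efferocytosis genes 5 were higher and none lower, among them Stab1 (1.51, interval 1.08–2.09) and Cd36 (2.06, interval 1.41–3.01), a receptor of oxidised lipids. Of 16 lipid handling genes 3 were higher, Cd36, the cholesterol exporter Abca1 (2.13, interval 1.47–3.08) and lipoprotein lipase Lpl (1.65, interval 1.33–2.04), and none lower; with equal weights Cd36 stood at 1.30 and Abca1 at 1.04. Apoe was 3972 and 4555 CPM, a ratio of 1.15 (1.09–1.20). Without the cells with other lineage or cDC2 markers Ctsd had 1.41, Stab1 1.20, Cd36 1.43 and Abca1 1.36, all short of the fold set. Igf1 had a ratio of 1.94 (1.46–2.57) and Apoc1, an apolipoprotein of macrophages, of 2.97 (2.23–3.96). Of 13 iron and heme genes, Slc40a1, the iron exporter ferroportin (3.10, interval 1.90–5.12), was among 3 higher; the ferritin chains Fth1 and Ftl1 both had a ratio of 1.28.

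The Kupffer cell list gave the highest median, whose size depended on single cells and on the cells included. Of 16 Kupffer cell identity genes measured, 10 were higher and Vsig4 was lower, with a median log2 ratio of 0.91. Without the cells with most UMIs of each gene the median was 0.25, and with equal weights 0.14; without the cells with a Clec4f UMI it was 1.56. Clec4f itself gave 77 UMIs in 14 WT cells and 59 in 5 Vsig4 KO cells, 44 of them in 1 cell; its ratio of 1.53 (1.07–2.17) turned to 0.522 without the top cells. Cd5l gave 132 UMIs in 25 WT and 135 in 20 Vsig4 KO cells, a ratio of 2.04 (1.59–2.61) that was 1.43 without the top cells. Marco, a scavenger receptor for bacteria, gave 23 UMIs in 11 WT and 50 in 11 Vsig4 KO cells, and its ratio of 4.34 (2.599–7.45) was 5.82 without them. Folr2, Il18bp and Cd163 had ratios of 1.94, 2.23 and 5.99 on 38, 38 and 15 Vsig4 KO UMIs. In the 192 and 108 cells with neither a Clec4f nor a Ly6c2 UMI, the ratio was 6.47 (3.52–12.5) for Cd5l, 8.46 (2.70–35.0) for Marco, 3.39 (1.73–6.82) for Slc40a1, 3.84 (1.66–9.38) for Il18bp and 3.16 (1.55–6.59) for Folr2. These Kupffer-type genes were thus also higher in Vsig4 KO outside the Clec4f-positive cells, on few cells. Marco gave 4 UMIs in 4 WT and 15 in 6 Vsig4 KO cells there, and Cd5l 15 in 10 and 43 in 15. Timd4 gave 3 and 1 UMIs, a ratio of 0.752 with an interval from 0.0143 to 9.37. Within the 14 and 5 Clec4f-positive cells, Vcam1 gave 5 and 31 UMIs, a ratio of 9.78 (3.77–32.2), and Marco had 2.91 (1.62–5.38) and Slc40a1 2.18 (1.01–4.85). The interval of Cd5l there included 1, at 1.26 (0.949–1.67). These rest on 14 and 5 cells.

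**Figure D4:**
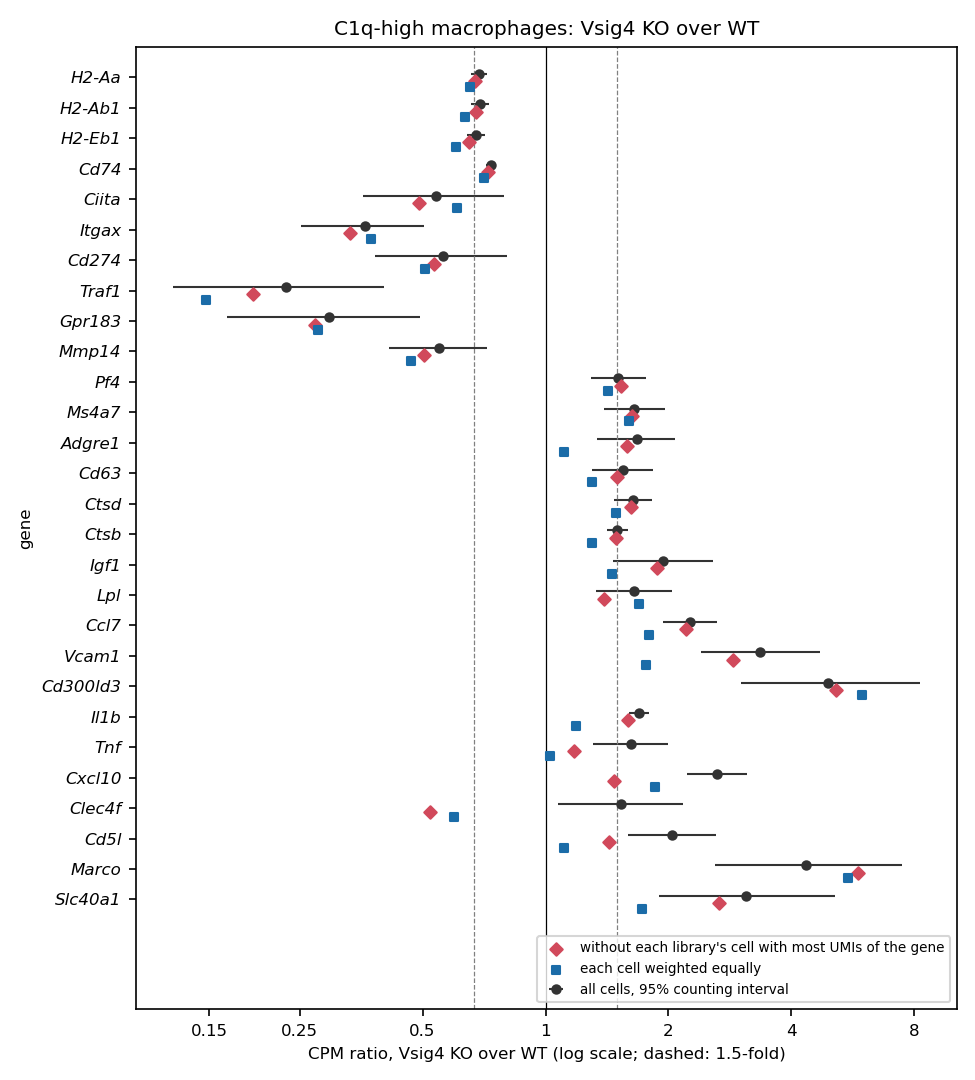
CPM ratio of Vsig4 KO over WT (log scale) for 28 genes: black points with bars give all cells and the 95% counting interval, red diamonds the ratio without the cell holding most UMIs of the gene in each library, and blue squares the ratio with each cell weighted equally; dashed lines mark 1.5-fold. The MHC class II genes, Itgax and Traf1 lie left of 1 in all 3 versions, Ms4a7, Vcam1 and Cd300ld3 lie right of 1.5-fold in all 3, and Clec4f changes side.

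The inflammatory cytokine Il1b gave opposite ratios in different cells of the population; the difference between them was not tested. Il1b was found in 117 of 249 WT and 45 of 136 Vsig4 KO cells. It held 2205 CPM (2123–2289) in the WT sum against 3733 CPM (3582–3888) in the Vsig4 KO sum, and the ratio was 1.69 (1.60–1.79). In cells with a Ly6c2 UMI it was 2649.6 CPM (2478–2830.1) for WT against 8575 CPM (8188–8977) for Vsig4 KO, and the ratio was 3.24 (2.99–3.51). In cells with neither a Ly6c2 nor a Clec4f UMI it was 2086 and 1202 CPM, a ratio of 0.576 (0.519–0.638). The intervals of these ratios lie on opposite sides of 1. They cover the counting error of UMIs summed over 43 and 23, and 192 and 108 cells, and not the spread between cells. By C1q share the order was different: the ratio was 2.68 (2.46–2.92) under 0.2%, 1.73 (1.56–1.92) at 0.2 to 0.5%, 0.960 (0.831–1.11) at 0.5 to 1% and 4.53 (3.46–6.01) at 1% or more, where Il1b was 370.3 and 1677 CPM. In that last bin Il1b gave 65 UMIs in 17 of 64 WT cells and 319 UMIs in 12 of 52 Vsig4 KO cells. Its summed level was thus not lower in the C1q-richest Vsig4 KO cells, on few cells with a UMI. With equal weights the Il1b ratio over all cells was 1.19. In Ly6c2-high monocytes outside the population the ratio was 1.78 (1.72–1.84), and in the Spp1, Arg1 or Gpnmb macrophages 0.784 (0.739–0.831).

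The other 3 cytokines counted as higher among 6 measured were Il1a (1.996, interval 1.27–3.14), Tnf (1.62, interval 1.31–1.999) and Il18 (2.603, interval 1.46–4.69). Of them only Il18, with at most 4 UMIs in a cell, was past 1.5-fold with equal weights, at 2.10, against 1.03 for Il1a and 1.03 for Tnf. Ptgs2, the prostaglandin-making enzyme COX-2, had a ratio of 2.37 (2.06–2.73). The list's median of 0.73 was 0.45 without the top cells and 0.04 with equal weights.

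Among 13 chemokines measured, 5 were higher and 2 lower. Ccl7, which draws monocytes, gave 323 UMIs in 51 WT and 366 in 39 Vsig4 KO cells, 262 and 591 CPM, a ratio of 2.26 (1.94–2.63); at 1000 UMIs per cell it was seen in 10.1% (6.503–14.8) and 21.0% (14.2–29.2) of cells. With no limit on Spp1, Arg1 and Gpnmb in the rule, which adds the other macrophages, Ccl7 had 1.10. In cells with a Ly6c2 UMI its ratio was 0.296 (0.195–0.437), and in cells with neither a Clec4f nor a Ly6c2 UMI 4.71 (3.89–5.72). By C1q share its interval excluded 1 only at 1% or more, where the ratio was 5.18 (3.70–7.41). Ccl8 gave 14 UMIs in 6 WT and 53 in 15 Vsig4 KO cells, a ratio of 7.56 (4.13–14.7). The neutrophil-attracting Cxcl2 had a ratio of 1.77 (1.64–1.92) and Ccl4 of 1.58 (1.49–1.67), and with equal weights these were 1.19 and 0.963. Ccl24, an eosinophil attractant, was lower, at 109 and 27.5 CPM, and 74 of its 135 WT UMIs lay in 1 cell. The interferon-induced Cxcl9 (3.96, interval 3.23–4.88) and Cxcl10 (2.63, interval 2.23–3.11) were the 2 higher of 15 interferon-gamma response genes, of which Gbp4 (0.210) was the 1 lower. In the C1q-richest bin Cxcl9 gave 58 UMIs in 8 WT and 258 in 7 Vsig4 KO cells, a ratio of 4.11 (3.08–5.56). Its ratio was 0.955 (0.552–1.60) at 0.5 to 1% and 0.212 (0.0245–0.835) at 0.2 to 0.5%. In cells with a Ly6c2 UMI it gave 39 and 1 UMIs, a ratio of 0.0400 (0.000987–0.236), so the direction was not the same in all cells. Of Cxcl10, 168 of 332 Vsig4 KO UMIs lay in 1 cell, without which and its WT counterpart the ratio was 1.47.

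The largest differences by size were taken among 4428 genes that reached 50 UMIs over both sums and were seen in 10% or more of the cells. The 12 lowest were Gm47283, Traf1, Nfatc1, Csnk1e, Gpr183, Ptpn22, Vps37b, Kif21b, Cyld, Dock5, Pan3 and Bcl2, with ratios from 0.111 to 0.342. Traf1, an adaptor of TNF receptors, gave 121 UMIs in 51 WT and 14 in 9 Vsig4 KO cells, 98.0 and 22.6 CPM, a ratio of 0.231 (0.123–0.403); over all other barcodes the ratio was 0.890 (0.841–0.9404). Gpr183, the oxysterol receptor EBI2 that guides cell position, gave 115 and 17 UMIs, a ratio of 0.295 (0.166–0.493) here and 1.14 (1.08–1.19) in other barcodes. Cyld, a deubiquitinase of NF-kB signalling, had 0.333 (0.152–0.655), and Bcl2, a survival protein, 0.342 (0.169–0.636). For Ptpn22, 59 of 108 WT UMIs lay in 1 cell, without which and its Vsig4 KO counterpart the ratio was 0.573. Gm47283, a gene placed on chromosome Y, was low in all other Vsig4 KO barcodes as well (0.0803, interval 0.0698–0.0919), while the chromosome Y genes Ddx3y and Uty had 57 and 28, and 39 and 16 UMIs in the C1q-high macrophages.

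The 12 highest were Cd300ld3, Gm42031, Vcam1, Dynlt1b, Apoc1, Cadm1, Hist1h2ap, Cxcl10, Il18, Ifih1, Ecm1 and mt-Atp8. Cd300ld3, a myeloid receptor of the CD300 family, gave 24 UMIs in 17 WT and 59 in 33 Vsig4 KO cells, 19.4 and 95.3 CPM, a ratio of 4.91 (3.01–8.25) that was 5.97 with equal weights; over all other barcodes it was 1.32 (0.937–1.87). Its family members are alike in sequence, so reads can be split among them. Vcam1, an adhesion molecule for integrins that Kupffer cells also carry, gave 59 and 99 UMIs, 47.8 and 159.98 CPM, a ratio of 3.35 (2.40–4.70). Vcam1 was 222 and 405 CPM in the C1q-richest bin, where the ratio was 1.82 (1.22–2.75). Gm42031, Dynlt1b, Hist1h2ap and mt-Atp8 were also past 1.5-fold in all other barcodes, with ratios there of 3.04, 1.80, 2.41 and 2.03. For Cadm1, 53 of 128 Vsig4 KO UMIs lay in 1 cell, and for Ifih1, a sensor of viral RNA, 44 of 110.

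Heat-shock chaperones and some leading genes of the profile were lower in Vsig4 KO. Of those leading genes, Mmp14 (0.549, interval 0.414–0.719) and Creb5 (0.575, interval 0.376–0.859) were lower, and Axl, at 0.679 (0.508–0.898), fell just short of the fold set. Of 18 dissociation and heat-shock genes 5 were lower, among them the chaperones Hspa1a (0.521, interval 0.473–0.572) and Hspa1b (0.442, interval 0.402–0.486), while the list's median log2 ratio was -0.01; 2 were higher, Dusp1 (1.80, interval 1.62–2.01) and Zfp36 (1.76, interval 1.59–1.95), early response genes. Hspa1a was lower in all other Vsig4 KO barcodes as well, at 0.606 (0.595–0.617), so a lower level was shared with the rest of the library. Digestion of tissue can induce heat-shock genes; its part was not tested. Of 17 glycolysis and hypoxia genes 3 were lower, the glucose transporter Slc2a1 (0.593, interval 0.426–0.812), the angiogenic factor Vegfa (0.418, interval 0.236–0.700) and the oxygen sensor Egln3 (0.262, interval 0.108–0.549), and Bnip3 (1.83, interval 1.38–2.42) was higher.

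**Figure D5:**
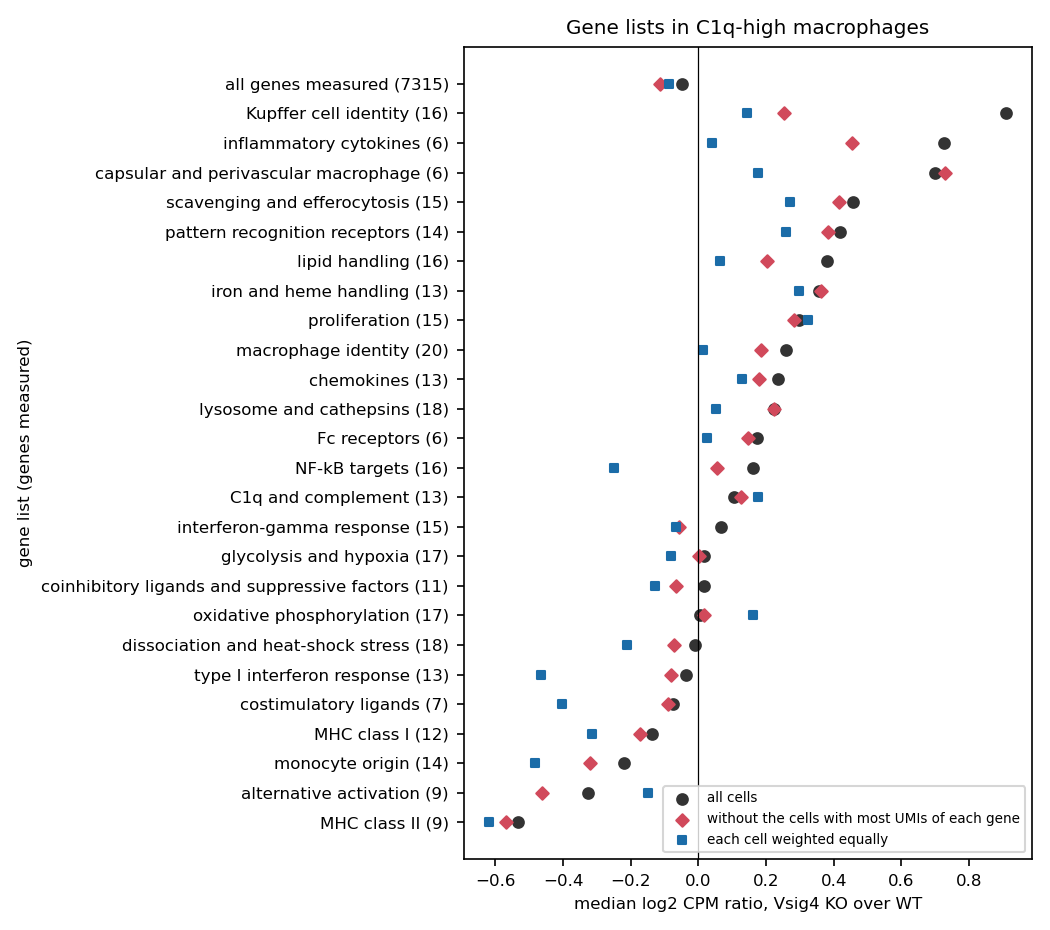
Median log2 CPM ratio of Vsig4 KO over WT for 25 gene lists, with the number of genes measured in brackets, and for all 7315 genes measured (top row); black circles use all cells, red diamonds leave out the cells with most UMIs of each gene and blue squares weight each cell equally. The MHC class II list lies at the left end with all 3 markers together, from -0.62 to -0.53, while the Kupffer cell list runs from 0.91 to 0.14.

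Several other lists lay near the median of all genes. The median log2 ratio was 0.01 for 17 oxidative phosphorylation genes, with none counted in either direction, 0.11 for 13 complement genes, -0.04 for 13 type I interferon genes and -0.07 for 7 costimulatory ligands. The type I interferon list was -0.47 with equal weights. Of 14 pattern recognition receptors 4 were higher and none lower, among them Tlr2 (1.76, interval 1.39–2.22), a receptor of bacterial lipoproteins, with a list median of 0.42. Of 14 genes of monocyte origin 3 were higher, Chil3, F13a1 and Vcan, and none lower, while Ccr2 (0.803, interval 0.675–0.954) and Plac8 (0.737, interval 0.649–0.835) lay below 1. Of 9 alternative activation genes 2 were higher and 4 lower, Ccl24, Cd209a, Clec10a and Il4ra, and of 6 Fc receptors none was counted in either direction. Cd5, the partner named in the series title and a gene of T cells and some B cells, gave 18 UMIs in WT and 0 in Vsig4 KO C1q-high macrophages. This is under the minimum of 20 UMIs set here, so Cd5 did not count as measured and no difference is read from it.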

How the data were processed

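The deposited gene tables hold UMI counts per barcode that the authors made, per the submitters' processing notes, with Cell Ranger 7.1.0 on mm10; the tables of both libraries were used, and the feature-barcode and V(D)J reads were not used here. No doublet was removed: Scrublet's own threshold marked 0 WT and 1 Vsig4 KO barcode, and so did not work. UMIs were summed over the C1q-high macrophages of each library and divided by their total (CPM). The 95% intervals are exact Poisson for CPM, Clopper-Pearson for shares, and for ratios come from the exact binomial split of a gene's UMIs. There is 1 library per genotype, so no test was made; the code was tested on simulated data. The members and gene lists were chosen with earlier results of these data known. Genes named are the rule's genes and markers, the 12 highest and 12 lowest ratios, of each list the 4 members with most UMIs and members past the threshold, the 20 leading profile genes, class markers, Cd5 and Cd6; not every such gene is printed. Alternatives changed the rule's thresholds, the UMI minimum per gene, the scaling, the weights of cells and the cells left out. Promoters came from RefSeq (GRCm38.p6).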

Additional observations from a re-analysis of the deposited data

Results flagged for a closer look

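Some genes had a ratio of Vsig4 KO over WT on one side of 1 in the C1q-high macrophages and on the other side in another myeloid population, each past 1.5-fold with a counting interval that excluded 1. With 1 library per genotype the difference between populations was not tested, and no explanation is weighed.

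Against the Spp1, Arg1 or Gpnmb macrophages, Traf1 had 0.231 in the C1q-high macrophages and 1.76 there. Cd5l had 2.04 and 0.383, and Cd36, the lipid receptor, 2.06 and 0.540. Cxcl9 had 3.96 in the C1q-high macrophages and 0 in the other macrophages, from 42 WT and 0 Vsig4 KO UMIs. In the C1q-high macrophages 258 of its Vsig4 KO UMIs lay in 7 cells of the C1q-richest bin. Among those with a Ly6c2 UMI its ratio was 0.0400 (0.000987–0.236). Of the 5 cDC2 markers, 3 went the opposite way. Cd209a had 0.0768 and 46.4 (1 and 36 UMIs in the Spp1, Arg1 or Gpnmb macrophages), Mgl2 0.133 and 7.997, and Clec10a 0.374 and 4.51. Lower UMI sums of these 3 markers in one macrophage population thus stood beside higher sums in the other. In the WT C1q-high macrophages, 129 of the 397 UMIs of all 5 markers lay in 1 cell. With C1q-high macrophages thinned to equal depth, the share with a cDC2 marker was 9.21% in WT and 8.87% in Vsig4 KO. The number of Spp1, Arg1 or Gpnmb macrophages holding these UMIs is not given here. The sums therefore do not show a different level across the cells of either population.

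Against the Ly6c2-high monocytes, Ptpn22 had 0.296 in the C1q-high macrophages and 1.62 in monocytes, and Vps37b 0.313 and 1.53. The class I gene H2-Q7 had 0.609 and 1.82. Ccl5 had 0.393 and 1.97, but without the cells with other lineage markers its ratio in the C1q-high macrophages was 1.27, so the opposite direction did not hold for it. The lipid genes Abca1 (2.13 and 0.463) and Apoc1 (2.97 and 0.456) were higher in the C1q-high macrophages and lower in monocytes. Ccl7 was higher in the summed C1q-high macrophages, at 2.26, and lower in both other populations, at 0.409 in monocytes and 0.605 in the Spp1, Arg1 or Gpnmb macrophages. Among the C1q-high macrophages with a Ly6c2 UMI its ratio was 0.296 (0.195–0.437), the same direction as in the monocytes.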

How the results depend on the processing

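The share ratio stayed between 0.532 and 0.753 under 11 alternatives, and the median of the MHC class II list between -0.62 and -0.39 under 17. With each cell weighted equally that median was -0.62, the macrophage identity median 0.013, the inflammatory cytokine median 0.039 and the count of lower genes 614; Clec4f (0.597) and Ccl4 (0.963) moved below 1. With at least 100 UMIs per gene, 124 genes were higher and 142 lower, since fewer were measured, and the median of the capsular and perivascular macrophage list was -1.21 on the log2 scale. The Vsig4 ratio was 0 in cells with a Clec4f UMI and 0.574 without them. Without each gene's top cells Clec4f had 0.522, and with Spp1, Arg1 and Gpnmb at 0 Mmp12 had 0.918. Vcan had 0.739 at a C1q minimum of 10 UMIs and 0.660 at a C1q share of at least 0.1%. Leaving out cells with other lineage markers gave Ccl5 1.27, and leaving out cDC2-marker cells too gave Ccl5 1.23; Mgl2 (1.52) and Clec10a (2.13) are themselves among the markers that removed the cells, so their values there show nothing; these last alternatives and the one without top cells were chosen after seeing the data. Apart from the cells or genes that each alternative removes or weights, the cause was not tested. Of 106 genes named, equal weights ended the call of 33 on the same side of 1, moved 2 called genes across 1 and added 6 calls. Removal of top cells ended the call of 14 on the same side, moved 1 across 1 and added 3. No limit on Spp1, Arg1 and Gpnmb ended the call of 32 and added 1, and both other scalings changed none. No paired analysis was possible because there is 1 library per genotype and the labels carry no replicate numbers. With 385 cells, many genes rest on few UMIs, and spread between mice cannot be seen.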

Other observations

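Cell cycle genes lay slightly above the median of all genes. Of 15 measured, 12 had ratios above 1, beside 3264 of all 7315 genes measured. Of the 15, 3 were counted as higher in Vsig4 KO (Ube2c, Cdk1 and Birc5), beside 292 of all 7315, and the median log2 ratio was 0.30. Of 6 genes of capsular and perivascular macrophages measured, Fcna, Igfbp4 and F13a1 were higher and Cd209a lower. Of 16 NF-kB target genes 4 were higher and 2 lower (Traf1 and Nfkbid), and the list's median was 0.16, or -0.25 with each cell weighted equally.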
